A study of Mus musculus with 9 samples.

Results

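Dicalcium silicate (C2S), a calcium silicate ceramic studied as a material for filling bone defects, was added to mouse bone marrow mesenchymal stem cells (BMSCs) in osteogenic medium, and the RNA of these cultures was compared with that of the same medium without it. BMSCs are the adherent stromal cells of the marrow, which can form bone, cartilage and fat. The comparison used 6 of the 9 libraries of the series, 3 of osteogenic medium (OM) and 3 of osteogenic medium with C2S. Linear genes entered when they reached 1 FPKM (a read level scaled to transcript length and library depth) in at least 3 of the 9 libraries, which 13049 of 31405 genes did. Circular RNAs (circRNAs), closed RNA loops joined by back-splicing, entered when listed in at least 3 of the 9 libraries, which 2898 of 6614 did.

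Cells of both groups came from a commercial mouse BMSC stock, were expanded in serum-containing medium, and were kept for 7 days with 100 nM dexamethasone, a synthetic glucocorticoid, 0.2 mM ascorbic acid, a cofactor of collagen hydroxylation, and 10 mM beta-glycerophosphate, a phosphate donor. The OM group received these supplements alone and the C2S group received C2S as well, so the glucocorticoid was present on both sides of the comparison. The third group, proliferation medium (PM) without the supplements and also cultured for 7 days, served to estimate the spread, and its values stand beside the others as a reference. The labels name several doses of C2S and tie none to the sequenced cultures, so the dose is not known here. They name 1 source of cells and leave unsaid whether libraries of a group came from separate cultures. Every p-value therefore measures only how far these samples spread, and that spread may be technical.

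Calcium silicates dissolve slowly in medium and release calcium and silicate ions. Growth factors such as the fibroblast and epidermal growth factors act through receptor tyrosine kinases on the Ras, Raf, MEK and ERK kinases, and ERK activity raises the transcription of its own brakes, the Sprouty proteins and the dual-specificity phosphatases. Fos and Jun proteins pair to form the transcription factor AP-1 and belong to the immediate-early genes, which respond to a stimulus without new protein synthesis and are short-lived as RNA. Mineral deposition by osteoblasts, the bone-forming cells, depends on the balance between phosphate and its inhibitor pyrophosphate, which Enpp1 makes, Ank exports and the alkaline phosphatase Alpl breaks down.

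The libraries rested on 30256447 to 38508452 reads in OM and C2S, as recovered from the FPKM steps. Pearson correlations across genes were 0.9876 to 0.9954 within OM and within C2S, and 0.9822 to 0.9885 between OM and C2S libraries. Of 10 stromal markers, Ly6a, Cd44, Vcam1, Pdgfra, Pdgfrb and Cxcl12 were expressed, whereas Thy1, Eng, Nt5e and Lepr stayed under 1 FPKM in all 6 libraries. Markers of other cells were low. Of 9 macrophage markers, 7 were under 1 FPKM in all 6 libraries, among them C1qa and Tyrobp at 0, and Cd68 and Cd14 were above it. The summed level ran from 26.6 to 32.2 FPKM in OM and from 37.3 to 44.1 in C2S, nearly all of it from Cd14, which stromal cells also make. The 4 endothelial markers summed to 1.23 to 1.29 FPKM in OM and 1.93 to 2.09 in C2S, the blood markers to at most 0.0676, and the 3 chondrocyte markers to 2.18 to 2.65 in OM and 1.98 to 2.66 in C2S. In bulk RNA of this kind, fewer cells of a type and less RNA per cell cannot be told apart.

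C2S changed many genes by small amounts. By limma, a linear model with moderated variances, 2877 of the 13049 genes (22.0%) passed a Benjamini-Hochberg adjusted p of 0.05, and of these 1380 (10.6%) rose and 1497 (11.5%) fell. The median log2 change was -0.0071 over all tested genes, and the median absolute log2 change of the called genes was 0.29. All log2 changes are differences of log2(FPKM + 1), C2S minus OM, with the standard error after ±, and group levels are mean ± SD with n = 3. A change of at least 2-fold was met by 48 rises but by only 9 falls, and one of at least 1.5-fold by 216 rises and 69 falls. The larger changes were thus mostly rises, although more genes fell than rose. The 3 C2S libraries lay entirely above or below the 3 OM libraries in 43.2% of tested genes, above in 19.9% and below in 23.3%. Members of the gene lists below were chosen with earlier results of these data known. Their shares beside those of all genes therefore describe the lists and are no test of them.

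**Figure D1:**
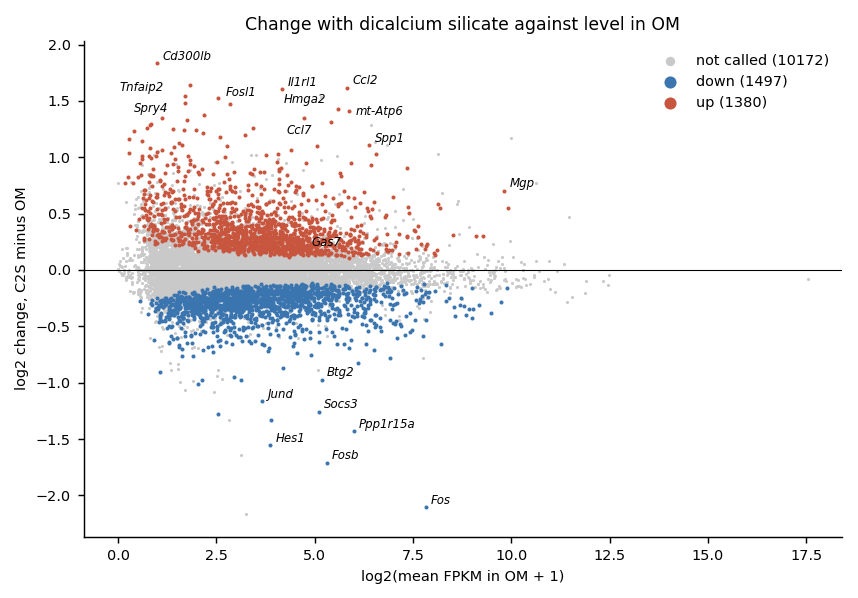
The log2 change of C2S against OM (y axis) is plotted against the mean level in OM as log2(FPKM + 1) (x axis) for the 13049 tested genes, with red for the 1380 called up, blue for the 1497 called down and grey for the rest. Cd300lb, Ccl2 and Il1rl1 lie near the top, Fos lies lowest of the called genes at a log2 change of -2.10, and Gas7 lies among the uncalled genes.

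Monocyte chemokines and the IL-33 receptor were among the largest rises. Ccl2, the chemokine that attracts monocytes, read 60.2, 50.9 and 56.3 FPKM in the OM libraries and 176, 155 and 190.2 in the C2S libraries, against 41.5, 48.9 and 45.8 in PM. Every C2S library stood far above every OM library, which in turn lay close to PM. The log2 change was 1.62 ± 0.092 (limma adjusted p = 2.9e-05), and leaving out any 1 library gave 1.55 to 1.70. Its neighbour on chromosome 11, the related monocyte chemokine Ccl7, rose from 25.7 ± 0.326 to 67.1 ± 6.05 FPKM (log2 change 1.35 ± 0.092). The membrane-bound chemokine Cx3cl1, which binds cells bearing Cx3cr1, rose from 1.90 ± 0.259 to 4.32 ± 0.334 FPKM, and Ccl9, a mouse chemokine that draws osteoclast precursors, rose from 1.22 ± 0.192 to 2.34 ± 0.249 FPKM. Of the 14 of 26 listed chemokines and atypical chemokine receptors that were tested, 4 rose, 2 fell and 8 did not pass. The share called was 42.9% against 22.0% of all genes, with a median log2 change of 0.23 against -0.0071 over all genes. The falls were Cxcl12, which keeps blood stem cells in the marrow (from 48.3 ± 0.104 to 37.1 ± 1.18 FPKM), and Ackr3, a receptor that removes Cxcl12 from the medium (from 5.35 ± 0.646 to 3.83 ± 0.180 FPKM). The Ackr3 call was lost without C2S replicate 2 (adjusted p = 0.0514) or replicate 3 (0.0515). The neutrophil chemokine Cxcl1 did not pass and was very uneven in OM, at 25.3, 35.3 and 53.3 FPKM against 24.1, 23.4 and 28.5 in C2S.

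The IL-33 receptor Il1rl1, also called ST2, read 19.8, 16.9 and 14.2 FPKM in OM and 48.5, 52.7 and 58.6 in C2S, and the groups stood well apart. Its log2 change was 1.60 ± 0.11 (limma adjusted p = 8.2e-05), with 1.49 to 1.71 when 1 library was left out. Levels in PM, 91.2, 95.2 and 88.6 FPKM, were above both. The receptor's ligand Il33, a nuclear cytokine released from damaged cells, read 1.79, 1.62 and 1.50 FPKM in OM, 4.09, 4.08 and 4.02 in C2S and 5.55, 5.39 and 4.08 in PM, so OM was the lowest medium for both ligand and receptor. Il33 rose by a log2 change of 0.94 ± 0.096 (limma adjusted p = 0.00046). The shared co-receptor Il1rap rose from 12.9 ± 0.907 to 15.8 ± 0.524 FPKM (lost without OM replicate 3 or C2S replicate 1 or 3, adjusted p = 0.06 to 0.0803), the IL-1 receptor Il1r1 from 2.60 ± 0.241 to 3.85 ± 0.152 FPKM, and the receptor kinase Irak2 by a log2 change of 0.46 ± 0.068. Il18rap, the accessory chain of the IL-18 receptor, which was on no list and was picked after its value was seen, rose from 2.10 ± 0.377 to 5.68 ± 0.227 FPKM. Of the 20 of 26 listed genes of this family that were tested, 5 rose, 5 fell and 10 did not pass, so rises and falls balanced. The share called was 50% against 22.0% of all genes. The falls numbered 2 on leaving out OM replicate 2 or any C2S replicate and 3 on leaving out OM replicate 1. The largest fall was that of Socs3, the inhibitor of IL-6-type signalling, from 21.6, 29.7 and 49.3 FPKM in OM to 12.2, 12.7 and 13.1 in C2S. Il6 itself read 0.666, 1.83 and 4.24 FPKM in OM and 0.420, 0.342 and 0.418 in C2S. All 3 C2S values lay below the OM values, which spread widely among themselves, and the log2 change of -1.06 ± 0.36 did not pass (limma adjusted p = 0.0653, and 0.015 without OM replicate 1).

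Genes of NF-kB, the factor that drives many chemokines, did not move as a class. Of 23 tested members 3 rose and 3 fell, a share close to that of all genes, with a median log2 change of -0.05. The rises were Tnfaip2, a TNF-induced gene of membrane protrusions (from 2.23 ± 0.267 to 8.36 ± 0.199 FPKM), the adhesion molecule Vcam1 (0.56 as a log2 change) and the endotoxin receptor Tlr4 (0.56). The feedback inhibitor Nfkbia was at 70.8 ± 3.90 FPKM in OM and 64.5 ± 0.320 in C2S (log2 change -0.13 ± 0.059, limma adjusted p = 0.145). The myeloid receptor Cd300lb, whose log2 change of 1.83 ± 0.072 was the highest of the named genes, read 0.958, 1.04 and 0.979 FPKM in OM, 5.54, 6.18 and 6.62 in C2S and 1.65, 1.56 and 1.42 in PM, so a low level rose well clear of OM. Arg2, the mitochondrial arginase, was at 0.789 ± 0.0737 FPKM in OM and 3.39 ± 0.373 in C2S, and met the filter of 1 FPKM in 3 libraries only through C2S, where it is high. Cd14 rose from 27.4 ± 2.90 to 37.4 ± 3.31 FPKM. The macrophage markers Lyz2 (log2 change 0.13 ± 0.14) and Cd68 (-0.15 ± 0.064) did not pass, while Ptprc, the pan-leukocyte antigen, was near 0 in all 6 libraries. The part of myeloid RNA in these rises was not tested.

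**Figure D2:**
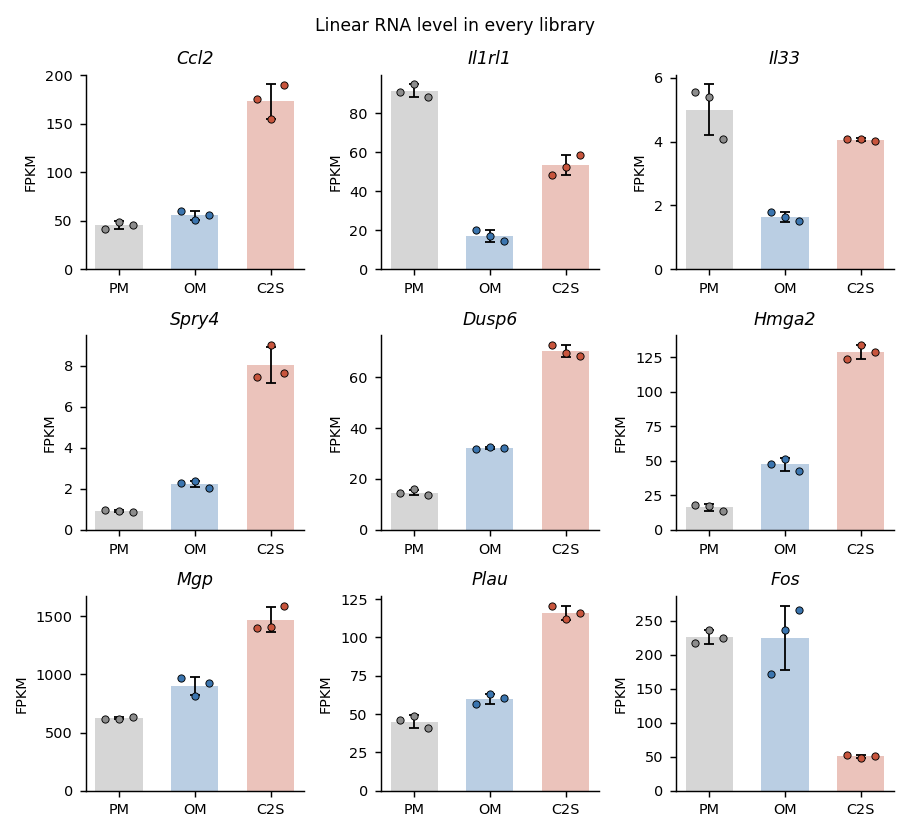
FPKM (y axis) of 9 genes in PM, OM and C2S (x axis), with bars at the mean of 3 libraries, error bars of 1 SD and a point for each library. In each of the 9 panels the C2S points lie clear of the OM points, the means of Il1rl1 and Il33 are highest in PM, and Fos falls from 225 to 50.7 FPKM.

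Many genes of the ERK cascade and its feedback were higher in C2S. Of 27 of 32 listed genes tested, 17 rose, 1 fell and 9 did not pass, against 10.6% of all genes rising and 11.5% falling, and the median log2 change was 0.35. As the list was chosen with earlier results known, these counts do not test it. Between 15 and 17 rose in every alternative tried. Starting with the ligands, epiregulin (Ereg) read 15.8, 16.1 and 15.8 FPKM in OM and 34.02, 32.4 and 34.00 in C2S, and Hbegf 13.2, 15.1 and 15.6 in OM and 24.5, 24.6 and 24.98 in C2S. Both ligands bind the EGF receptor, and both were higher in every C2S library. Their log2 changes were 1.03 ± 0.049 (limma adjusted p = 1.6e-05) and 0.72 ± 0.070 (0.00038). The receptor Egfr rose by 0.27 ± 0.078 on the log2 scale, a call lost on leaving out any library except OM replicate 2 (adjusted p = 0.0874 to 0.106). Among the fibroblast growth factors, Fgf2 rose from 6.42 ± 0.719 to 11.02 ± 1.04 FPKM, Fgf7, the keratinocyte growth factor, from 25.2 ± 1.28 to 40.9 ± 0.694 FPKM, and Fgf10 by a log2 change of 0.30 ± 0.068, lost without C2S replicate 2 (adjusted p = 0.0551) or 3 (0.0553). Their receptors moved apart, with Fgfr1 rising from 47.4 ± 3.57 to 70.6 ± 6.52 FPKM and Fgfr2 falling from 10.2 ± 0.307 to 7.10 ± 0.687 FPKM. Fgf2 overlaps Nudt6, its antisense partner, and Fgf7 overlaps Fam227b, and since no source used here states how strand was handled in counting, such pairs cannot be told apart.

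Among the kinases of the cascade, Braf (log2 change 0.01 ± 0.10), Map2k2 (-0.05 ± 0.057) and Mapk3 (-0.07 ± 0.057) did not pass, and Map2k1, which encodes MEK1, rose by 0.18 ± 0.036. Downstream, the Ets factors Etv4, Etv1 and Etv5, which ERK signalling induces in many tissues, rose by log2 changes of 1.00 ± 0.14, 0.74 ± 0.094 and 0.67 ± 0.077. The brakes showed the largest values. Spry4, a Sprouty that blocks the path from receptor to Ras and Raf, read 2.27, 2.37 and 2.07 FPKM in OM and 7.44, 9.04 and 7.68 in C2S, against 0.993, 0.935 and 0.884 in PM. Dusp6, the cytoplasmic phosphatase of ERK, read 31.8, 32.5 and 32.2 FPKM in OM and 72.7, 69.5 and 68.1 in C2S, with 14.3, 15.96 and 13.7 in PM. In both genes the 3 media form steps, lowest in PM, then OM, then C2S, with no overlap. Log2 changes from OM to C2S were 1.48 ± 0.077 for Spry4 (limma adjusted p = 2e-05) and 1.10 ± 0.054 for Dusp6 (1.6e-05). The nuclear phosphatases Dusp4 (1.26 ± 0.14) and Dusp5 (0.65 ± 0.053), Spry2 (0.47 ± 0.051), Spred1 (0.52 ± 0.069) and Spred2 (0.56 ± 0.13) rose as well, the last being lost without OM replicate 3 or C2S replicate 2 or 3 (adjusted p = 0.0569 to 0.0634). The exception was Dusp1, an immediate-early phosphatase that glucocorticoids also induce, which fell from 157 ± 37.8 to 103 ± 7.20 FPKM. OM replicates 1 to 3 read 122, 152 and 197 FPKM for Dusp1, so this fall rested on an uneven OM group, and the call was lost on leaving out any library other than OM replicate 1.

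Fos and many other immediate-early genes fell. Fos read 172, 236 and 266 FPKM in OM, 52.05, 48.3 and 51.7 in C2S and 217, 237 and 225 in PM. The C2S libraries lay close together and far below the others, while OM replicate 1 was lower than the other two OM libraries. Its log2 change was -2.10 ± 0.13 (limma adjusted p = 5.4e-05), and it stayed between -2.28 and -1.97 with 1 library left out. Fosb, its close relative, read 29.7, 43.3 and 42.5 FPKM in OM and 11.9, 9.86 and 11.01 in C2S, a log2 change of -1.71 ± 0.17 (limma adjusted p = 0.00039). Jund fell from 11.7 ± 4.77 to 4.41 ± 0.178 FPKM, Jun from 52.5 ± 9.50 to 32.6 ± 1.01 FPKM and the stress-induced Atf3 from 3.60 ± 1.07 to 2.09 ± 0.128 FPKM, the last call being lost without OM replicate 2 or any 1 C2S library. Junb, at 140.3, 208 and 297 FPKM in OM and 108, 113 and 138 in C2S, did not overlap between the groups and did not pass (limma adjusted p = 0.0636). It passed without OM replicate 1 (adjusted p = 0.02). Of the 12 of 14 AP-1 subunits tested, 1 rose, 5 fell and 6 did not pass, 50% called against 22.0% of all genes. Their median log2 change was -0.37. The 1 rise was Fosl1, known as Fra-1, a subunit induced later than Fos and a known target of ERK and AP-1, which read 4.59, 5.02 and 4.88 FPKM in OM and 15.6, 17.8 and 14.2 in C2S. Its mean level in C2S was 3.28 times that in OM, with a log2 change of 1.53 ± 0.11 (limma adjusted p = 9.4e-05). Fosl1 overlaps Ccdc85b. The remaining member of the Fos group, Fosl2, did not pass at -0.20 ± 0.070, although it did without OM replicate 1 (adjusted p = 0.0127).

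Of 29 of 32 other listed immediate-early genes tested, 6 rose, Egr3 counted, 13 fell and 10 did not pass. The share called was 65.5% against 22.0% of all genes, with a median log2 change of -0.25. The rises numbered 2 on leaving out C2S replicate 3 and 3 on leaving out C2S replicate 2, and the falls 8 on leaving out C2S replicate 3. Hes1, a repressor induced by Notch and by serum, read 9.17, 13.6 and 18.2 FPKM in OM and 3.42, 3.37 and 4.82 in C2S, and Ppp1r15a, which restores translation after stress, 45.4, 65.1 and 76.8 in OM and 22.04, 21.2 and 22.8 in C2S. Both fell in every C2S library, by log2 changes of -1.56 ± 0.24 and -1.43 ± 0.18 (limma adjusted p = 0.00272 and 0.00100). Zfp36, which speeds the decay of cytokine RNAs, fell from 67.5 ± 15.4 to 36.95 ± 0.546 FPKM, and the antiproliferative Btg2 fell from 35.2 ± 14.03 to 16.6 ± 2.05 FPKM, a call lost on leaving out any library other than OM replicate 1 (adjusted p = 0.0691 to 0.0957). Egr1, the prototype serum-response gene, fell by a log2 change of -0.38 ± 0.12 (limma adjusted p = 0.0477), a call lost on leaving out any library except OM replicate 1 (0.0657 to 0.137), and its relative Egr3 rose by 0.64 ± 0.080, having met the filter of 1 FPKM in 3 libraries only through C2S, where it is high. Myc did not pass (0.18 ± 0.086). The serum response factor Srf, which drives Fos and Egr genes in response to serum, rose by 0.28 ± 0.072, lost on leaving out any library except OM replicate 2 (adjusted p = 0.0684 to 0.0746).

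The OM group was uneven in these genes. All 18 AP-1 and immediate-early genes called down were lowest in OM replicate 1, and they were highest in OM replicate 3 for 11 of them and in OM replicate 2 for 7. Their median ratio of SD to mean was 0.190 in OM, 0.0463 in C2S and 0.0849 in PM, whereas over the 8405 tested genes with a mean of at least 5 FPKM in OM it was 0.0565, 0.0369 and 0.0605. All 18 were still called down without OM replicate 1. As they were lowest in that OM library, leaving it out could only widen the falls, so this does not test the unevenness. At least 12 were called down in every alternative tried.

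**Figure D3:**
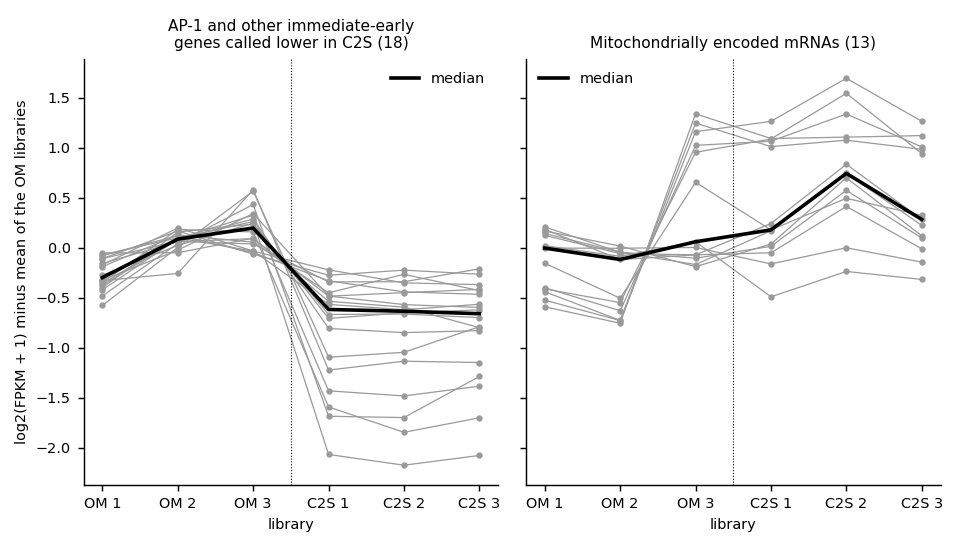
Each line is 1 gene, its log2(FPKM + 1) minus the mean of the OM libraries (y axis), followed over OM replicates 1 to 3 and C2S replicates 1 to 3 (x axis), for the 18 AP-1 and immediate-early genes called down on the left and the 13 mitochondrial mRNAs on the right. The black line is the median of the genes. On the left all 18 are at their lowest OM value in replicate 1 and lie low and level in C2S, and on the right several mRNAs are high in OM replicate 3 as well as in C2S.

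The promoter window of Fos, the gene with the largest called fall, is shown with the result of a search for sites of AP-1, Egr, serum response factor, NF-kB and the cAMP response element. The window, chr12:85473640-85473939 on the plus strand of GRCm38.p6 (RefSeq), is printed with capitals for matches to the motifs searched.
Fos promoter: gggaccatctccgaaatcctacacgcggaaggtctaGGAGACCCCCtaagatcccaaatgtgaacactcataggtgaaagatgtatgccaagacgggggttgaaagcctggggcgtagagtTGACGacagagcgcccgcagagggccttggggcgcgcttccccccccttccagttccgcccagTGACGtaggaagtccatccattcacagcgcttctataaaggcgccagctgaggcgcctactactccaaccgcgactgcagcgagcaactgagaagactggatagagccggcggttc
Capitals mark TGACG, the shorter form of the cAMP response element, at -129 to -125 and at -66 to -62 from the start site, and an NF-kB-type match at -214 to -205. The full element TGACGTCA, which contains TGACG, the AP-1 site TGANTCA, the Egr site GCGTGGGCG and the CArG box (the site of serum response factor, searched by name) were not in these letters. Both strands were searched. Sequence outside these 300 bases, farther upstream included, was not searched, so a site not found is missing from this window only. Over all 32851 RefSeq promoter windows of this length, TGACG was in 20.8%, the NF-kB-type site in 4.51%, TGANTCA in 7.81%, TGACGTCA in 1.79%, the CArG box in 1.63% and GCGTGGGCG in 0.612%. Per gene, counting a gene when any of its windows matched, TGACG was in 36.4% of 996 genes called up, 34.9% of 1086 called down and 37.1% of 6737 not called. Only tested genes with a RefSeq window enter here, and these shares per gene cannot be set against the 20.8% per window. The AP-1 site was in 7.13%, 5.71% and 5.67% of the same genes. The Il1rl1 windows, 1 for each annotated start, held no match at chr1:40429320-40429619 and a TGACG at -34 to -30 in chr1:40439379-40439678, and the Hmga2 window (chr10:120476420-120476719, minus strand) held none. TGACG was added to the motif list after the other motifs.

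Hmga2 encodes an architectural DNA-binding protein that is abundant in embryonic mesenchyme and low in most adult tissues. It read 47.9, 51.6 and 42.4 FPKM in OM, 124, 134 and 129 in C2S and 18.3, 17.6 and 13.6 in PM, so the media again formed steps without overlap, C2S highest. The log2 change was 1.43 ± 0.11 (limma adjusted p = 0.00011), and 1.35 to 1.49 with 1 library left out. Its relative Hmga1 rose from 52.9 ± 4.38 to 86.3 ± 3.01 FPKM. The microRNA gene Mir763 lies inside Hmga2, and its entry (log2 change 1.37 ± 0.22) cannot be told apart from the host transcript. Of 8 of 11 listed oncofetal genes tested, 2 rose and 0 fell, 25% called and close to the 22.0% of all genes. The other 6 tested genes of the oncofetal group did not pass, among them the RNA-binding proteins Igf2bp2 (0.03 ± 0.064) and Igf2bp3 (-0.09 ± 0.088), which are known Hmga2-linked genes.

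Genes on both sides of the pyrophosphate balance rose. Of 9 of 16 mineralization genes tested, 6 rose and 0 fell, 66.7% called against 22.0% of all genes. Their median log2 change was 0.54, and 6 or 7 rose in every alternative. The enzyme that breaks pyrophosphate down, Alpl, read 9.97, 10.5 and 9.01 FPKM in OM and 14.2, 15.6 and 15.2 in C2S, and the enzyme that makes it, Enpp1, 4.57, 4.81 and 4.18 in OM and 6.99, 7.33 and 7.98 in C2S. The exporter Ank read 74.96, 80.9 and 70.9 FPKM in OM and 115, 126 and 127 in C2S. For all 3 genes the lowest C2S library lay above the highest OM library, as in 19.9% of all tested genes. Mgp, the matrix protein that inhibits calcification, was the most abundant of the group and rose from 967, 817 and 924 FPKM in OM to 1401, 1409 and 1591 in C2S, with 617, 616 and 631 in PM. Log2 changes were 0.70 ± 0.079 for Mgp (limma adjusted p = 0.00072), 0.70 ± 0.064 for Ank (0.0003), 0.61 ± 0.081 for Enpp1 (0.00139) and 0.57 ± 0.060 for Alpl (0.00054). Enpp2, which makes lysophosphatidic acid, rose from 1.63 ± 0.0459 to 2.82 ± 0.0310 FPKM. Of the phosphate importers Slc20a2 rose by 0.42 ± 0.055, and Slc20a1, at 0.32 ± 0.13, did not pass (limma adjusted p = 0.104, and 0.0456 without OM replicate 2).

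Late osteoblast genes stayed under the filter and were not tested. Over the 6 libraries Sp7, the osteoblast transcription factor osterix, reached at most 0.0339 FPKM, the osteocalcin gene Bglap 0.135, the bone sialoprotein gene Ibsp 0.0249 and Dmp1 0.126. Tnfsf11, which encodes the osteoclast inducer RANKL, reached 0.395 FPKM and its decoy Tnfrsf11b 0.288. Runx2, the master regulator upstream of Sp7, was expressed at 4.73, 4.98 and 4.01 FPKM in OM and 5.83, 6.44 and 5.41 in C2S, with a log2 change of 0.31 ± 0.12 (limma adjusted p = 0.0976, and 0.0463 with OM and C2S libraries alone). Of 16 of 23 osteoblast and mesenchymal transcription factors tested, 6 rose, 3 fell and 7 did not pass. The share called was 56.25% against 22.0% of all genes, with 0 falls without OM replicate 2 or C2S replicates 1 or 3. The rises included Foxc2 (from 1.09 ± 0.146 to 2.60 ± 0.216 FPKM), Runx1 (from 5.33 ± 0.110 to 8.61 ± 1.20 FPKM), and Twist1 (from 37.6 ± 0.529 to 54.6 ± 2.46 FPKM), a known inhibitor of Runx2. Spp1, osteopontin, rose from 82.9 ± 15.7 to 179 ± 28.6 FPKM, and thrombospondin Thbs1 by a log2 change of 0.55 ± 0.11. The main bone collagens Col1a1 (29.9 ± 3.31 FPKM in OM, 25.8 ± 4.13 in C2S, log2 change -0.21 ± 0.11) and Col1a2 (-0.15 ± 0.074) did not pass. Of 14 bone matrix genes 2 rose and 1 fell, 21.4% called against 22.0% of all genes, the fall being that of osteomodulin (Omd, -0.55 ± 0.11), which overlaps Cenpp. Among osteoclast-coupling cytokines Il34, a ligand of the macrophage receptor Csf1r, was the 1 call of 6 tested (16.7%), at 0.33 ± 0.072, and it was lost without C2S replicate 3 (adjusted p = 0.0569).

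**Figure D4:**
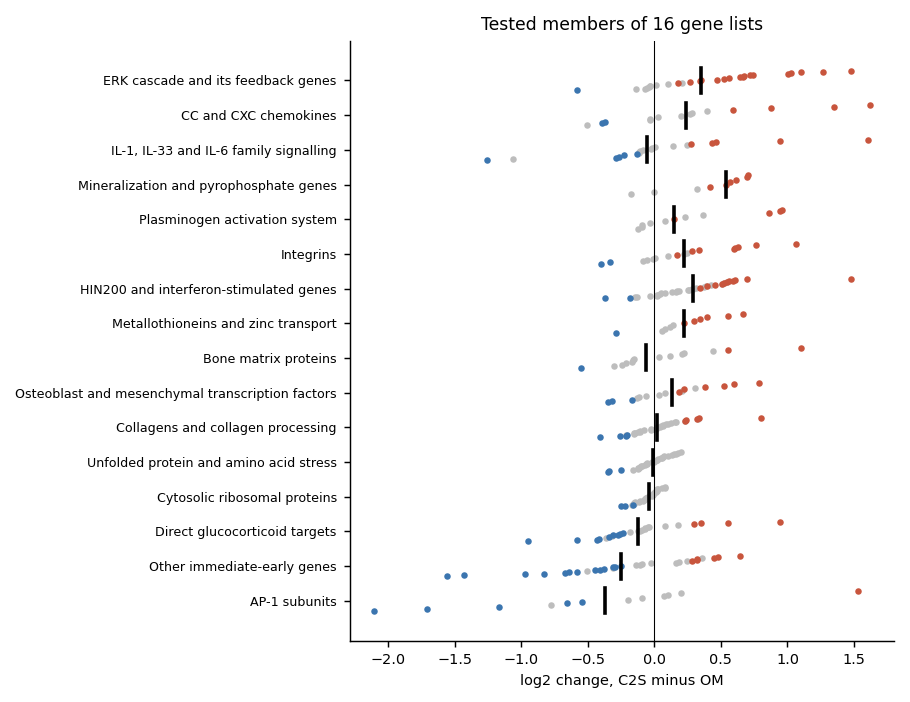
Log2 change of C2S against OM (x axis) for the tested members of 16 gene lists (rows), each point 1 gene coloured by its call, with a bar at the list's median. The ERK and mineralization lists lie mostly to the right of 0, the AP-1 and immediate-early lists mostly to the left with Fosl1 far to the right, and most other lists straddle 0.

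The urokinase activator and its receptor, which set proteolysis at the cell surface, rose. The urokinase activator Plau read 56.4, 62.9 and 60.2 FPKM in OM and 121, 112 and 116 in C2S, and its receptor Plaur 9.89, 9.57 and 8.42 in OM and 17.7, 17.1 and 18.2 in C2S. Protease and receptor were both higher in every C2S library than in any OM library. Their log2 changes were 0.95 ± 0.069 and 0.86 ± 0.098 (limma adjusted p = 9.8e-05 and 0.00072). The tissue activator Plat (-0.12 ± 0.045) did not pass. Of 11 of 14 genes of the system tested, 4 rose and 0 fell, 36.4% called against 22.0% of all genes, with a median of 0.15. The smallest rise, that of Serpine2 (0.15 ± 0.042), was lost on leaving out any 1 library (adjusted p = 0.051 to 0.124). Of 21 metalloproteinases and their inhibitors 5 rose and 5 fell, 47.6% called against 22.0% of all genes, with a median log2 change of -0.01. The falls numbered 3 on leaving out C2S replicate 2 or 3. The stromelysin Mmp3 (1.05 ± 0.086) and Mmp19 (0.86 ± 0.048) rose, and the aggrecanase Adamts5 (-0.66 ± 0.071) fell.

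Integrins, the receptors for matrix, gave 8 rises and 2 falls among 17 of 21 tested, 58.8% called against 22.0% of all genes, with a median log2 change of 0.22. The rises numbered 5 on leaving out OM replicate 1 or 3 or any C2S replicate. Itga2, a subunit of a collagen receptor, read 1.28, 1.30 and 0.951 FPKM in OM and 3.23, 3.43 and 3.97 in C2S, and Itgb3, a subunit of the vitronectin and osteopontin receptor, 1.21, 1.42 and 1.17 in OM and 2.70, 2.69 and 3.17 in C2S. Both were higher in every C2S library, by log2 changes of 1.06 ± 0.092 and 0.76 ± 0.077 (limma adjusted p = 0.00024 and 0.00046). The laminin receptor subunit Itga6 (0.63 ± 0.13) rose, as did Itgb2 (0.60 ± 0.069), the leukocyte integrin subunit. Collagens and their processing enzymes gave 5 rises and 4 falls of 33, close to the background, the largest being Col6a3 (from 6.02 ± 0.747 to 11.2 ± 0.760 FPKM) and the lysyl hydroxylase Plod2 (-0.41 ± 0.055). YAP targets and contractile genes gave 4 rises and 5 falls of 26, 34.6% called against 22.0% of all genes. The YAP targets Ctgf (0.55 ± 0.12) and Cyr61 (-0.58 ± 0.083) took opposite directions, the first losing its call without C2S replicate 3 (adjusted p = 0.0625), and Amotl2, which restrains YAP, fell from 119.8 ± 11.7 to 68.96 ± 2.68 FPKM.

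Glucocorticoid targets, known to respond to the dexamethasone that both media held, gave 4 rises and 9 falls of 25 of 27 tested. The share called was 52% against 22.0% of all genes, with a median log2 change of -0.12. Falls were to 0.743 of the OM level for Tsc22d3, the leucine zipper GILZ, and 0.445 of it for Fam107a, while Fkbp5, a co-chaperone that glucocorticoids induce, did not pass (218 ± 7.57 FPKM in OM, 207 ± 4.71 in C2S). Hsd11b1, which regenerates active glucocorticoid, rose from 2.53 ± 0.164 to 5.79 ± 0.343 FPKM. Hsd11b1 lies next to G0s2, an inhibitor of the lipase Pnpla2, which rose from 1.15, 1.27 and 1.09 FPKM to 4.46, 4.39 and 4.75. Both genes overlap parts of Lamb3. Among metallothioneins and zinc transporters 6 rose and 1 fell of 11, 63.6% called against 22.0% of all genes, with a median of 0.22. Mt4, 1 of these rises, met the filter only through C2S, where it is high. The rises numbered 3 on leaving out OM replicate 1 or C2S replicate 1. Mt2 rose from 956 ± 40.7 to 1399.7 ± 43.01 FPKM, and the zinc importer Slc39a10 by a log2 change of 0.34 ± 0.056. Mt1 and Mt2 are near-identical, so reads may be shared between them. Zinc and glucocorticoid both induce them.

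Interferon-related genes leaned upward, led by the HIN200 family of nucleic acid sensors on chromosome 1. Ifi208 read 6.97, 6.48 and 5.05 FPKM in OM and 20.3, 16.04 and 20.3 in C2S, with 0.611, 0.524 and 0.249 in PM, and Ifi203 16.2, 16.6 and 14.6 in OM and 28.5, 24.3 and 26.00 in C2S. Both were above OM in every C2S library, by log2 changes of 1.47 ± 0.14 (limma adjusted p = 0.00033) and 0.70 ± 0.14 (0.00838). Of 37 of 43 genes of the list tested, 11 rose, 2 fell and 24 did not pass. The share called was 35.1% against 22.0% of all genes, with a median log2 change of 0.29. The rises numbered 6 on leaving out C2S replicate 1 or 3. Of the rises, 7 were HIN200 genes (Ifi208, Ifi203, Ifi207, Mndal, Ifi202b, Ifi204 and Ifi211). These are closely related copies in 1 cluster and Ifi203 overlaps Mndal, so the split between them is uncertain. The calls of Mndal and Ifi211 were lost on leaving out single libraries, for Mndal any except OM replicate 2 (adjusted p = 0.0597 to 0.0839) and for Ifi211 C2S replicate 1 (0.0552) or 3 (0.0539). The ubiquitin-like Isg15 rose by 0.56 ± 0.15, a call lost on leaving out any library except OM replicate 1 or C2S replicate 2 (adjusted p = 0.0585 to 0.0897), while the interferon factors Irf7 (0.03 ± 0.091) and Irf9 (0.04 ± 0.062) did not pass and Irf1 fell by a log2 change of -0.37 ± 0.062.

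In prostaglandin signalling the receptor Ptger4 and the terminal synthase Ptges rose. The prostacyclin receptor Ptgir read 0.658, 0.749 and 0.774 FPKM in OM and 2.16, 2.15 and 3.24 in C2S, and the prostaglandin E synthase Ptges 11.8, 12.4 and 11.8 in OM and 19.2, 20.6 and 21.5 in C2S. Their C2S libraries all stood above the OM libraries. Ptgir met the filter only through C2S, where it is high, and its change is given with no test. The log2 change of Ptges was 0.72 ± 0.050 (limma adjusted p = 9.1e-05). The receptor Ptger4 rose by 0.44 ± 0.067, and the prostacyclin synthase Ptgis fell by a log2 change of -0.21 ± 0.044. The inducible cyclooxygenase Ptgs2, an immediate-early gene, did not pass at -0.17 ± 0.13, but did without OM replicate 1 (adjusted p = 0.0169). Of 11 genes tested 4 rose, Ptgir counted, and 1 fell, 45.5% called against 22.0% of all genes, and the rises numbered 2 on leaving out C2S replicate 3. Fat cell regulators gave 6 rises and 3 falls of 20, 45% called against 22.0% of all genes. Their rises numbered 2 on leaving out C2S replicate 3 and 3 on leaving out OM replicate 1 or 3 or C2S replicate 2. Pparg, the master regulator of fat cells, rose from 8.86 ± 0.707 to 15.1 ± 0.543 FPKM and the lipase Lpl from 71.2 ± 2.88 to 94.1 ± 6.34 FPKM, while the fat cell marker Fabp4 did not pass (0.14 ± 0.073).

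Ligand pathways of bone gave calls in both directions. BMP and TGF-beta genes gave 7 rises and 7 falls of 31 tested, 45.2% called against 22.0% of all genes. Their median log2 change was 0.0075. The rises numbered 4 on leaving out C2S replicate 3, and the falls 4 on leaving out OM replicate 2 or C2S replicate 2 or 3. Tgfb1 rose from 0.824 ± 0.0670 to 1.80 ± 0.266 FPKM. The antagonist Grem1 rose by 0.56 ± 0.053. The BMP target Id2 fell from 28.9 ± 3.66 to 16.7 ± 0.305 FPKM, while Id1 did not pass (0.12 ± 0.14). Wnt genes gave 3 rises and 6 falls of 21, 42.9% called against 22.0% of all genes. Their rises numbered 1 on leaving out any OM replicate or C2S replicate 1 or 2. Axin2, the usual readout of beta-catenin, did not pass (-0.04 ± 0.076). Wisp1 (0.41 ± 0.046) rose and Wisp2 (-0.43 ± 0.040) fell. In the Notch list Hes1 fell and Rbpj, the DNA-binding partner of Notch, rose by 0.52 ± 0.070, while the ligand Jag1 (-0.02 ± 0.089) did not pass. Of the IGF-binding proteins Igfbp3 fell from 59.3 ± 2.06 to 38.3 ± 2.07 FPKM.

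Against 22.0% of all genes called, the share called in the ion transport, lysosome, stress, replication, glycolysis, cholesterol and ribosomal lists ran from 8.82% (ribosomal proteins) to 31.8% (glycolysis and hypoxia targets). Calcium channels, pumps and sensors gave 4 rises and 3 falls of 30, with a median log2 change of 0.07. Rcan2, an inhibitor of calcineurin, rose by 0.54 ± 0.085, and the calcineurin target Rcan1 (-0.10 ± 0.057) did not pass. Magnesium, proton and bicarbonate transport gave 2 rises and 3 falls of 20, the largest being the magnesium transporter Slc41a2 (from 4.02 ± 0.362 to 7.13 ± 0.204 FPKM). Lysosome and endocytosis genes gave 3 and 6 of 32, and 1 of these rises, Ctsk, met the filter only through C2S, where it is high. Antioxidant genes gave 3 and 5 of 28, and the unfolded protein response 0 and 3 of 30. Calr, a calcium-binding chaperone, fell by a log2 change of -0.35 ± 0.071. The proliferation marker Mki67 did not pass (14.2 ± 3.15 FPKM in OM, 14.2 ± 0.825 in C2S, log2 change 0.03 ± 0.20). Of 39 replication and mitosis genes 4 rose and 7 fell, and the falls numbered 3 on leaving out OM replicate 1 or any C2S replicate and 4 on leaving out OM replicate 2. The entry cyclin Ccnd1 rose from 70.3 ± 5.48 to 106 ± 1.99 FPKM, and the inhibitors Cdkn1b (-0.49 ± 0.052) and Cdkn2b (-0.69 ± 0.073) fell. Glycolysis gave 3 rises and 4 falls of 22, with hexokinase Hk2 rising from 8.87 ± 0.293 to 15.7 ± 0.649 FPKM. Gapdh fell by a log2 change of -0.69 ± 0.086 from a level of only 13.4 ± 1.97 FPKM, and its many processed copies make that value uncertain. Cholesterol synthesis gave 3 rises and 2 falls of 22, a share of 22.7% beside the background of 22.0%, and ribosomal proteins 0 and 3 of 34. Semaphorins and plexins, above the background, gave 4 rises and 5 falls of 17, the rises numbering 0 on leaving out C2S replicate 3 and 2 on leaving out C2S replicate 2, and the guidance cues Sema3c (-0.58 ± 0.046) and Sema3e (-0.54 ± 0.083) fell.

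Mitochondrially encoded mRNAs were uneven in another OM library. mt-Atp6, an ATP synthase subunit, read 34.9, 28.4 and 108 FPKM in OM and 116, 157 and 116 in C2S. OM replicate 3 lay near the C2S level, and OM replicates 1 and 2 far below it. The log2 change of 1.41 ± 0.43 passed (limma adjusted p = 0.0450) but was lost without any single library other than OM replicate 3. The same library stood apart for mt-Co2, mt-Co3, mt-Nd3 and mt-Nd4l, of which the first 3 did not pass with it and passed without it (adjusted p = 0.004, 0.000492 and 0.000157). In all 2 of the 13 mRNAs rose and 1 fell, 23.1% called against 22.0% of all genes, with a median of 0.38. There were 5 rises without OM replicate 3 and 0 without any other single library. Other mRNAs of the same genome did not pass, such as mt-Co1 at 3798 ± 11.2 FPKM in OM and 3548 ± 221 in C2S, and mt-Nd6, the 1 mRNA of the other strand, fell by a log2 change of -0.35 ± 0.076. Neighbouring mitochondrial genes overlap, and nuclear copies share their sequence, so single values are uncertain.

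No circRNA passed the threshold. By limma 0 of 2898 tested circRNAs (0.00%) were called, the lowest adjusted p was 0.504, and 151 (5.21%) had an unadjusted p under 0.05, of which 54 were higher and 97 lower in C2S. No second tool was run on them. A listed circRNA had a median of 3 back-splice reads, and the median standard error of the log2 change was 0.49. The groups did not overlap for 10.0% of circRNAs, with C2S above OM in 4.55% and below in 5.49%. Of 2642 exonic circles tested, 101 lay above OM and 145 below. Of 161 intergenic ones, 21 lay above and 10 below, and of 95 intronic ones, 10 above and 4 below. The OM libraries listed 2615 to 2808 circRNAs and the C2S libraries 2361 to 2456, means of 2691 ± 103 and 2411 ± 47.7. Total circRNA reads were 19839 ± 843 in OM and 17592 ± 568 in C2S. Both measures were lower in every C2S library than in any OM library, and the two-sided exact permutation test gave p = 0.1, the smallest that 3 against 3 libraries allow. Among genes of circRNA formation and decay 3 rose and 1 fell of 25, 16% called against 22.0% of all genes. The helicase Dhx9, which unwinds the repeats that promote circles, was at 0.45 ± 0.10, and its call was lost without C2S replicate 2 or 3.

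Circles and their host genes were set side by side. The 308 tested circles of genes called up had a median log2 change of 0.018 on the log2(RPM + 111.7) scale, where RPM is back-splice reads scaled to the library's total of circRNA reads, beside 0.28 on the linear scale for their hosts. The 218 circles of genes called down had medians of -0.14 and -0.24, and the 2164 circles of uncalled hosts -0.052 and 0.015. The 2 scales differ, so the values stand side by side without a test. The 243 genes chosen for naming hosted 105 listed circles, of which 31 were tested and 3 had an unadjusted p under 0.05. These were circ_779 of Serpine2, with 3, 0 and 0 reads in OM and 3, 3 and 4 in C2S, circ_5231 of Pla2g4a, with 6, 5 and 2 in OM and 0, 0 and 2 in C2S, and circ_5926 of Anxa2, with 3, 3 and 3 in OM and 0, 0 and 0 in C2S. Every count here is small, and the tables list no circle below 2 reads, so a 0 here can hide a single read.

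The largest circRNA differences came from circles missing in whole libraries. circ_233, an intergenic circle with ends at chr6:124537361-124631217 (mm10), had 0, 0 and 175 reads in OM and 191, 193 and 176 in C2S, and 0, 0 and 158 in PM. It was thus near the same level in every library that listed it and missing from the other libraries of OM and PM. circ_1295 had 93, 0 and 101 reads in OM and 110, 121 and 88 in C2S, and circ_781 0, 0 and 8 in OM and 12, 11 and 9 in C2S. In the other direction circ_5779 had 6, 13 and 6 reads in OM and 0, 0 and 0 in C2S, circ_348 of the transcription factor gene Zfhx3 13, 18 and 10 in OM and 3, 4 and 0 in C2S, and circ_6302 of the lysosomal Lamp2 3, 5 and 8 in OM and 0, 0 and 0 in C2S. In RPM the OM and C2S libraries of these 6 circles do not overlap, although 1 or more OM libraries of circ_233, circ_1295 and circ_781 held close to the C2S level. circ_5779 was listed in no PM library either and met the filter only through OM, the group where it is high. Of the 2898 tested circles, 19 were unlisted in OM and listed in every C2S library, and 62 the reverse. Of these, 8 and 18 met the filter only through the group that listed them. The groups did not overlap for 10.0% of all tested circles. Circles below 2 reads are not listed, and mean circRNA reads were 19839 in OM and 17592 in C2S. The part of depth in these counts was not tested. The change in circ_348 was a log2 difference of -1.84 ± 0.58 (limma adjusted p = 0.514) beside 0.26 for Zfhx3 itself.

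**Figure D5:**
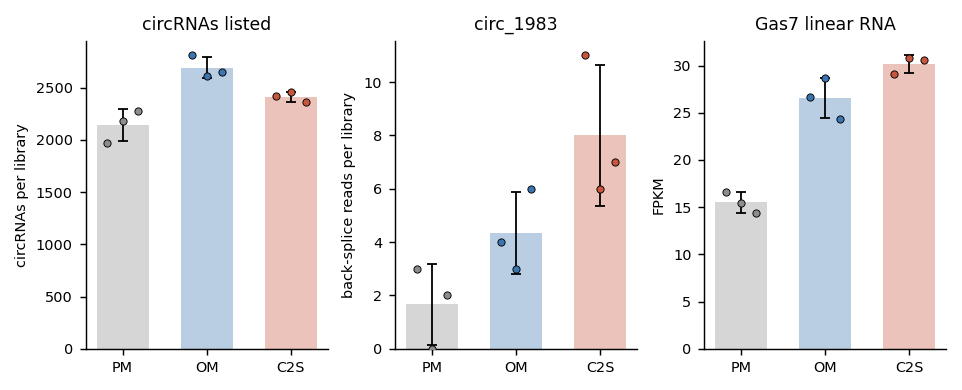
Listed circRNAs per library (left), back-splice reads of circ_1983 (middle) and FPKM of Gas7 (right) in PM, OM and C2S, with bars at the mean of 3 libraries, error bars of 1 SD and a point for each library. C2S lists fewer circRNAs than OM in every library, circ_1983 runs from 3 to 6 reads in OM and from 6 to 11 in C2S, and Gas7 lies between 29.1 and 30.8 FPKM in C2S.

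The title of the series names circ_1983, miR-6931 and Gas7 as an axis, so their sequences and values are given together. circ_1983 comes from Tacc1, a centrosomal protein gene, at chr8:25159645-25177994 on the minus strand of mm10, with 10 exons and 1050 bases of exonic sequence. Its lower end lies 176 bases inside the last annotated exon of Tacc1 (chr8:25154552-25159820), whereas 93.8% of the 6041 exonic circRNAs have both ends on annotated exon ends. The miRNA has 2 mature arms, printed from RefSeq (GRCm38.p6, chr11:102999896-102999916 and chr11:102999848-102999868, minus strand) with the seed, bases 2 to 8, in capitals.
mmu-miR-6931-5p: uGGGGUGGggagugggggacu
mmu-miR-6931-3p: cCCAACCUcuucauaccccag
The back-splice junction of circ_1983 is printed with the sequence after the junction in capitals, and the stretches holding the complement of the 5p seed with that complement in capitals. They were read from GENCODE transcript sequences and placed on mm10 by the annotated exons. The circle's sequence assumes that all annotated introns within it are removed.
circ_1983 junction: cctttgcagagagaaGAGCGGCTGCAAAGT
circ_1983, position 1029 of 1050: aataatgccccCCACCCCcctttgcagag
Gas7, chr11:67685097-67685103: gttccctcaccCCACCCCcaatccaaaag
Gas7, chr11:67685621-67685627: ttcagctcactCCACCCCccaggtagaca
The 5p seed complement CCACCCC occurs once in the circle (chr8:25159660-25159666) and at 5 places in the longest Gas7 transcript of 7067 bases, all after the stop codon. It is in 13.5% of 104675 windows of 1050 bases cut from protein-coding transcripts. The 3p complement AGGTTGG, in 5.30% of windows, was in neither. A match of this kind describes letters and is not a binding site.

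Reads of circ_1983 numbered 4, 3 and 6 in OM, 11, 6 and 7 in C2S and 3, 0 and 2 in PM. In reads the highest OM library equals the lowest C2S library, and in RPM, which corrects for depth, the groups do not overlap, as in 10.0% of circRNAs. The log2 change was 0.77 ± 0.46 on the log2(RPM + 111.7) scale (limma adjusted p = 0.90). Tacc1, its linear host, was at 33.7 ± 1.80 FPKM in OM and 36.8 ± 0.677 in C2S, a log2 change of 0.12 ± 0.061 (limma adjusted p = 0.180). Gas7, a growth-arrest gene that shapes the actin cytoskeleton (chr11:67455437-67688990), read 26.7, 28.6 and 24.4 FPKM in OM, 29.1, 30.8 and 30.6 in C2S and 16.7, 15.5 and 14.4 in PM. Every C2S library was above every OM library, as in 19.9% of all tested genes, and the log2 change of 0.18 ± 0.067 did not pass (limma adjusted p = 0.0903). It passed without OM replicate 2 (adjusted p = 0.0475), the OM library highest in Gas7. The 2 listed circles of Gas7 itself, circ_6255 and circ_7824, had 2 reads each in 1 OM library and none elsewhere. Mature miR-6931 was not measured in these tables.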

How the data were processed

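Total RNA for 9 libraries, 3 each of PM, OM and OM with C2S, was extracted with TRIzol, and the libraries were standard Illumina ones, per the labels' protocols. The submitters' processing notes name STAR, HTSeq, RSEM and build mm10 without roles or versions. The linear values that the authors deposited carry no unit name and were read as FPKM, scaled by the authors to length and depth, because low values, multiplied by transcript length, gave whole reads within 0.1 in 98.5% to 98.9% of cases. For circRNAs the authors deposited values read as RPM of circRNA reads, from back-splice junctions carrying both a CIRI and a find_circ identifier, per the file headers; the smallest is 2 reads, and a dash was set to 0. The 31405 linear genes and 6614 circRNAs were read with pandas 2.3.3 in Python 3.11.15. Of the genes, 30796 matched GENCODE, and 26 symbols stored as dates were restored by Ensembl identifier.

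All 9 libraries entered 1 limma fit (limma 3.58.1, R 4.3.3, mean trend, group as the only factor) on log2(FPKM + 1) or log2(RPM + 111.7), the second pseudocount being the median smallest value above 0. The scale understates changes of low genes. The filter was met only through the C2S libraries by 32 genes, 26 of them called up, and only through the OM libraries by 18, 13 of them called down. Such genes had to differ, and they are not tested when a library of that group is left out. The rises counted in the immediate-early, lysosome, metallothionein, surface marker and prostaglandin lists hold 1 each (Egr3, Ctsk, Mt4, Alcam and Ptgir). Adjusted p-values are Benjamini-Hochberg over all features tested. The fit was tested on simulated data. Single values per library were compared by exact permutation. The 42 gene lists and the members were chosen with earlier results of these data known. Genes named first were Ccl2, Il1rl1, Hmga2, Fos and Gas7, then the 15 highest and 10 lowest changes called without overlap between the groups, up to 4 called members per list, and all tested members of lists with at most 15. Other list members named as examples were picked after their values were seen. Results of some genes are not reported here. Alternatives were a pseudocount of 0.1, no filter, median centring, OM and C2S libraries only, a replicate block, and leaving out each library. Depth was 30256447 to 38508452 linear reads and 16936 to 20769 circRNA reads per OM or C2S library. No interval is given for single counts, and replicate spread is the error throughout. Counts recovered from FPKM were used only for depth.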

Additional observations from a re-analysis of the deposited data

How the results depend on the processing

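The number of called genes was 2877 in the fit as reported, 2857 with a pseudocount of 0.1, 2046 without a filter (1052 up, 994 down), 2998 after median centring, 2797 with OM and C2S libraries only and 2958 with a replicate block. With 1 library left out it ran from 1384 (without C2S replicate 3) to 2312 (without OM replicate 2), the rises from 716 to 1243 and the falls from 668 to 1100; the lower counts come with fewer samples. The share of rises among calls was 47.5% to 53.8% over all settings. Replicate numbers were shared between groups, and they are not said to mark a shared culture. Correlations of same-numbered deviations between OM and C2S were 0.084, 0.246 and 0.088, and each OM and C2S library correlated best with its own number. Whether the numbers pair the samples is therefore not known, and the block stands only as an alternative. The block also gave calls to Junb (adjusted p = 0.00882), Il6 (0.0305) and Runx2 (0.0396). Of 158 named genes called, 115 kept the call in all 11 alternatives, 4 kept it in the 8 that tested them and 39 lost it in at least 1; of 85 not called, 17 gained one; 0 reversed. CircRNA calls were 0 in every setting except without the filter on listing, which gave 16 (11 up, 5 down), among them circ_233 and circ_1295, whose cause was not tested. The difference in listed circRNAs ran from -318.5 to -222 with 1 library left out. A count test of circRNAs was not run, because values below 2 reads are not listed.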
